A study of Mus musculus with 258 samples.

Results

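The loops described here have 1 or both anchors in windows drawn around the 4 Hox gene clusters, in mouse B cells. The windows are 0.9 to 1.3 Mb wide, and a loop in a window need not touch a Hox gene. Below, "Hox loops" and the cluster names stand for the loops of these windows. They were chosen by position alone, in windows that were set with earlier results of these data known. A loop was taken when the start of either anchor fell in 1 of 4 windows of the mm9 genome, namely chromosome 6 from 51.6 to 52.8 Mb (Hoxa), chromosome 11 from 95.7 to 96.6 Mb (Hoxb), chromosome 15 from 102.3 to 103.3 Mb (Hoxc) or chromosome 2 from 73.9 to 75.2 Mb (Hoxd). This gave 5 of the 1866 loops called in resting cells and 11 of the 4315 called in activated cells, 16 of 6181 in all.

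Hi-C joins DNA ends that lie near each other in fixed nuclei and counts the joined pairs, and a loop is called where 2 anchors meet more often than their surroundings do. The B cells were wild type, from the spleens of C57BL6/J mice 6 to 8 weeks old, and were purified by removing other cells. Resting cells had 0 h of activation. Activated cells had been cultured for 72 h with 50 µg/mL of lipopolysaccharide, 2.5 ng/mL of interleukin 4 and 0.5 µg/mL of anti-CD180, stimuli that drive B cells to divide. The labels give 8 Hi-C libraries for resting and 26 for activated cells, but the deposited loops form 1 pooled list per state. Without replicates no p-value between states is given, and the intervals below cover counting error only. Loop lists hold no expression values, so the cell type was not checked against marker genes.

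Hox genes encode transcription factors with a homeodomain that give cells their position along the body axis, and their order on the chromosome follows the order in which they are used along that axis. The windows were drawn for 38 genes, of which 10 are in Hoxa (such as Hoxa9, Hoxa10 and Hoxa13), 10 in Hoxb (such as Hoxb4 and Hoxb13), 9 in Hoxc (such as Hoxc4 and Hoxc13) and 9 in Hoxd (such as Hoxd1 and Hoxd13). Genes with low numbers in their name, such as Hoxc4, pattern the front of the body, and those numbered like Hoxa13 and Hoxd13 its hind end and the digits. In blood, Hoxa9, Hoxa10 and Hoxb4 act in stem and progenitor cells, and Hox clusters of mature lymphocytes are commonly covered by Polycomb repression. In the embryo Hoxd and Hoxa each sit between a pair of large regulatory domains, 1 on either side, whose contacts change as limbs form. Loop anchors in mammals are often sites of CTCF and cohesin, which hold loops together. Among protein-coding genes of the RefSeq annotation, Hoxa lies between Skap2 and Evx1, Hoxb between Ttll6 and Skap1, Hoxc between Calcoco1 and Smug1, and Hoxd between Evx2 and Mtx2. That annotation is of another build (GRCm38), so loops are given by mm9 position and no anchor is assigned to a single gene. Sequence of the anchors was not analysed here, because no mm9 genome was used.

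Activated cells had more called loops in the Hox windows in total, in about the proportion of the whole lists. The 11 activated against 5 resting loops make a ratio of 2.2, with an exact conditional 95% interval of 0.705 to 8.08, which includes 1. Over the whole lists the ratio was 2.31 (2.19 to 2.44). Expected counts at shared loops were also higher in activated cells, by a median of 1.55 times over 1212 pairs. Depth and state thus differ together between the lists, and their effects on the counts cannot be told apart. Hoxa had 1 resting and 2 activated loops, Hoxb 1 and 1, Hoxc 3 and 6, and Hoxd 0 and 2. The interval of the ratio included 1 for each cluster taken alone. Hoxc was the most densely looped, with 3 resting and 6 activated loops per Mb, against 0.794 and 1.86 per Mb over chromosome 15 up to the last loop of each list. The window values also count loops with 1 anchor outside, which raises them against the chromosome values. With both anchors inside, the Hoxc window of 1 Mb held 1 resting and 6 activated loops. Hoxb had 1.11 loops per Mb in both states, against 1.36 and 3.18 on chromosome 11. With 1 loop per state this does not set Hoxb apart from its chromosome, and no interval was computed for any of these densities. No loop of either list reached across a whole Hox window.

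The resting count depends on how the windows are drawn. Of the 5 resting loops, 4 had 1 anchor outside their window, compared with 2 of the 11 activated loops. With both anchors required inside, 1 resting and 9 activated loops were left and the ratio was 9. The 35 kb resting loop of Hoxb had its inner anchor 20 kb inside the window edge, and the 35 kb resting loop of Hoxc 10 kb inside it. The nearest activated loop left out at Hoxc had an anchor 30 kb beyond the edge (65 kb long, strength 2.04), and the nearest at Hoxb 50 kb beyond it (70 kb, 2.23). At Hoxa the nearest anchors left out, from loops of 365 kb and 195 kb in activated cells, were 75 kb away.

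**Figure D1:**
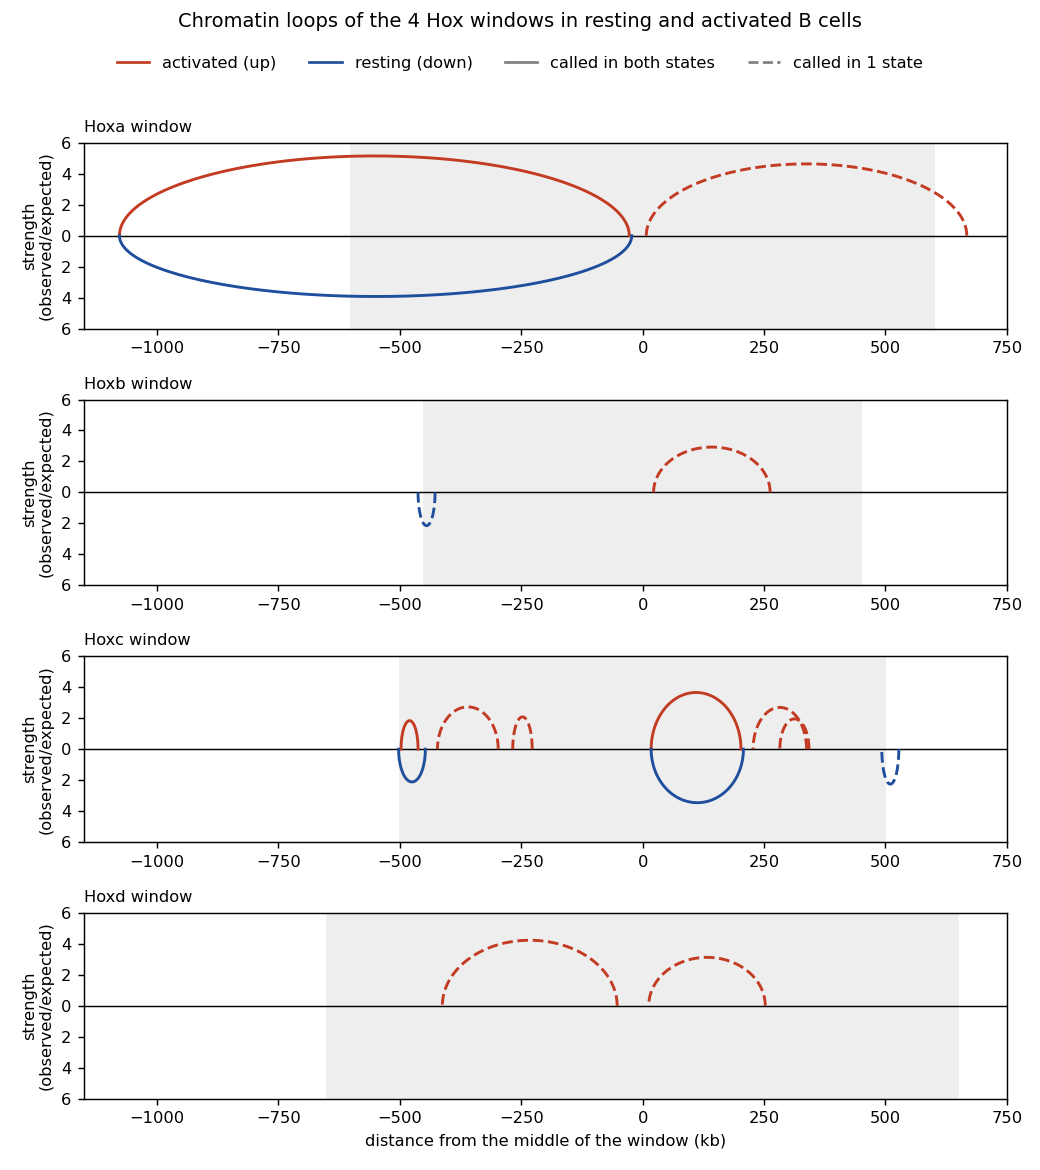
Arcs join the 2 anchors of each loop in the 4 windows (grey bands). The horizontal axis is the distance from the middle of the window in kb and the height is the strength, observed over expected contacts, with activated loops drawn up and resting loops down. Solid arcs are loops called in both states and dashed arcs loops called in 1 state. Hoxd has no resting arc, and the strongest arc of each state is at Hoxa.

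Most resting Hox loops had a partner in activated cells and most activated ones had none in resting cells, at shares close to those of the whole lists. Loops of the 2 lists were called shared where they overlapped at both ends once each anchor had been extended by 10 kb to its left and right. The shared loops made up 3 of 5 in resting cells, or 60% (23.1 to 88.2, a Wilson 95% interval), against 65.2% of all resting loops. Of the 11 activated loops 8 were called in activated cells alone (72.7%, 43.4 to 90.3), against 71.7% of all activated loops. These shares are near the background and set the Hox windows apart in neither list. The 3 shared loops comprised 1 at Hoxa and 2 at Hoxc. None of the 3 pairs lay at the same pixel in both lists, as they were 5, 5 and 20 kb apart summed over both ends. With anchors not widened, no resting Hox loop was shared.

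Hoxa held the longest and the strongest of the Hox loops. Strength is the observed contact count divided by the count expected from the ring of pixels around the loop (the donut background). In resting cells a single loop ran from 51120001 to 52180000 on chromosome 6, a distance of 1055 kb between anchors. It had 34 contacts (exact Poisson 95% interval 23.5 to 47.5) over 8.66 expected, a strength of 3.93. Its activated partner ran from 51120001 to 52175000, with 53 contacts (39.7 to 69.3) over 10.3 expected, a strength of 5.15. The log2 ratio of strengths was 0.39 with a counting SE of 0.32, so this rise was within counting error (interval -0.23 to 1.01), and against the horizontal background the sign turned (-0.23). Few loops of either list were as long: 26 resting and 61 activated loops exceeded 1000 kb. Among these the Hoxa loop was on the weak side, stronger than 11.5% of the resting and 37.7% of the activated ones.

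The left anchor of this long Hoxa loop, from 51115001 to 51125000, was the only Hox loop anchor that held 3 or more loops. It held 3 loops in resting and 4 in activated cells, and all but the long one ran leftward, away from the Hoxa window. The leftward loops were 180 and 235 kb long in resting cells and 230, 350 and 490 kb long in activated cells. Their strengths were 2.28 and 3.35 in resting cells and 3.48, 3.30 and 4.69 in activated cells. The loops of about 230 kb were matched between the states, and the other 3 were called in 1 state each.

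A second Hoxa loop was called only in activated cells. It ran rightward from 52205001 to 52870000, 660 kb between anchors, with 36 contacts (25.2 to 49.8) over 7.76 expected, a strength of 4.64. It began 30 kb beyond the end of the long leftward loop, so that in activated cells the Hoxa window had loops reaching out to both sides of its middle. In resting cells only the leftward one was called. With its counts divided by 1.55, the median ratio of expected counts between the states at shared loops, this loop would have had about 23 contacts and still passed the limits of the resting list (its lowest ratio and highest Poisson p against each background). So did 88.3% of all activated-only loops with this factor. The factor for loops over 500 to 1000 kb was lower (1.24), and with it this Hoxa loop also passed. Passing these lax limits does not show that a loop would have been called at resting depth.

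**Figure D2:**
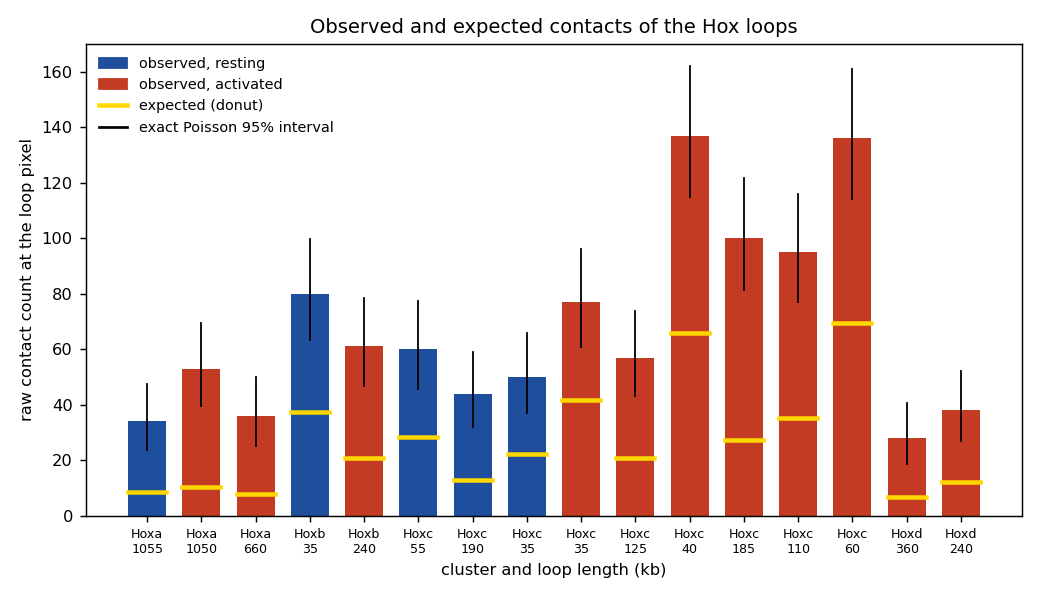
Bars give the observed contact count of each of the 16 Hox loops, with exact Poisson 95% intervals as black lines and the donut-expected count as a yellow line. The horizontal axis names the cluster and the loop length in kb. All 16 intervals lie above the expected count, which is no separate result, because loops are called for exceeding their surroundings. The highest counts, 137 and 136, are those of the activated Hoxc loops of 40 and 60 kb.

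Hoxd showed loops in activated cells and none in resting cells. The activated loops ran on chromosome 2 from 74135001 to 74500000 and from 74560001 to 74805000, with 360 and 240 kb between anchors, and their facing anchors lay 60 kb apart. The first had 28 contacts (18.6 to 40.5) over 6.61 expected, a strength of 4.24, and was stronger than 81.5% of activated loops of 200 to 500 kb. The second had 38 contacts (26.9 to 52.2) over 12.1 expected, a strength of 3.13, which was below the median of 3.30 for that length class. They were neighbouring loops without overlap, as were the activated loops of Hoxa, 30 kb apart. Hoxc also had such neighbours in activated cells, with gaps of 20, 25, 35 and 240 kb. How common this arrangement is over the whole list was not counted.

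The absence of a resting call at Hoxd does not set the states apart by itself. With 2 loops against 0, the interval of the ratio starts at 0.188 and has no upper bound. Of 1878 tiles of the same width along the 19 autosomes, 56.5% held no resting loop, and 13.3% held none in resting but 2 or more in activated cells, a measure chosen after the values were seen. The nearest resting loop anchor was 255 kb beyond the window. Divided by the same factor of 1.55, the Hoxd loops would have had about 18 and 24 contacts, where the lowest count of any loop in the resting list was 19. The second Hoxd loop did not pass the resting limits with the single factor of 1.55, and passed with the factor of its length class (1.46).

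Hoxc had the most loops, and its strongest loop was called in both states. The loop from 102815001 to 103010000 on chromosome 15 had 44 contacts (32.0 to 59.1) over 12.7 expected in resting cells, a strength of 3.46. In activated cells it ran from 102815001 to 103005000, with 100 contacts (81.4 to 121.6) over 27.3 expected, a strength of 3.66. Observed contacts were 2.27 times higher in activated cells (exact interval 1.58 to 3.32) and expected contacts 2.15 times, so the log2 ratio of strengths was only 0.08 (SE 0.26), and -0.40 against the vertical background. This was the strongest Hoxc loop in both lists, above 78.6% of resting and 84.4% of activated loops of 100 to 200 kb.

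The other shared Hoxc loop stood at the left edge of the window and was among the weaker ones. In resting cells it ran from 102295001 to 102355000, with 60 contacts (45.8 to 77.2) and a strength of 2.12. In activated cells it ran from 102300001 to 102340000, with 77 contacts (60.8 to 96.2) and a strength of 1.84. The log2 ratio was -0.20 (SE 0.25), within counting error, and the sign turned against the vertical background (0.06). The activated loop was stronger than 9.34% of activated loops of up to 50 kb, and than 1.37% of the whole list. The remaining resting loop of Hoxc, from 103290001 to 103330000 at the right edge, had 50 contacts (37.1 to 65.9) and a strength of 2.26, and was not called in activated cells. It was the last loop of chromosome 15 in either list.

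In activated cells 4 further loops were called within the Hoxc window. They lay from 102375001 to 102505000 (125 kb, 57 contacts, strength 2.73), from 102530001 to 102575000 (40 kb, 137 contacts, 2.08), from 103025001 to 103140000 (110 kb, 95 contacts, 2.70) and from 103080001 to 103145000 (60 kb, 136 contacts, 1.95). All 4 were weaker than the median of their length class, which was 2.88, 2.12, 2.88 and 2.43 in that order. The last of them lay over the right part of the one before it, and both ended at 1 common anchor, from 103135001 to 103145000, the only anchor inside a Hox window with 2 loops in a state. The 110 kb loop began 20 kb beyond the end of the strong shared loop. From 102815001 to the right edge the Hoxc window thus held 3 activated and 2 resting loops.

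Hoxb had 1 loop per state, at different places. The resting loop ran from 95685001 to 95725000 on chromosome 11, 35 kb between anchors, with 80 contacts (63.4 to 99.6) over 37.3 expected, a strength of 2.14. The activated loop ran from 96170001 to 96415000, 240 kb between anchors, with 61 contacts (46.7 to 78.4) over 20.8 expected, a strength of 2.93. Neither had a partner in the other list. The resting loop was close to the median of 2.18 for loops of up to 50 kb, and the activated loop was below the median of 3.30 for its class.

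**Figure D3:**
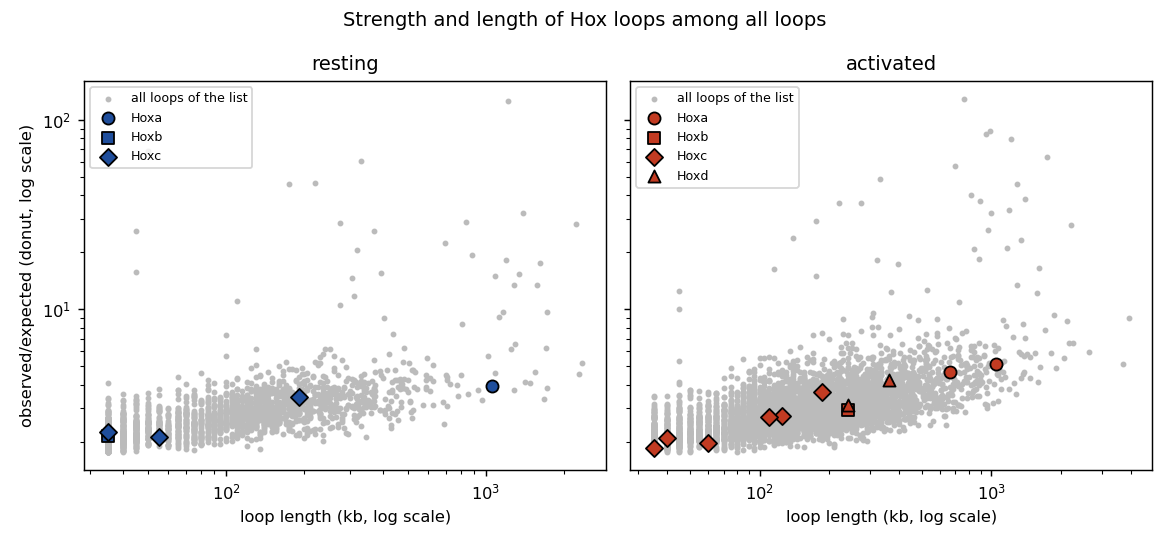
Each point is a loop, with length in kb and strength on log axes, for resting (left) and activated cells (right). Grey points are all loops of the list, and coloured symbols are Hox loops by cluster. Hox loops lie within the cloud of loops of their length, with the long Hoxa loops at 3.93 to 5.15 and the short Hoxc loops near 2.

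Length and strength of Hox loops ranged widely within each list. The median length was 55 kb in resting cells (35 to 1055) and 185 kb in activated cells (35 to 1050), against 90 and 140 kb over the whole lists. Of the 5 resting loops 1 was longer than 200 kb, and of the 11 activated loops 5 were, against 19.2% and 33.3% of the lists. The median strength was 2.26 in resting cells (2.12 to 3.93) and 2.93 in activated cells (1.84 to 5.15), against 2.63 and 2.84 over the lists. The medians for resting cells rest on 5 loops, of which 3 were 35 to 55 kb long. Measured against loops of their own length class, 2 of 5 resting and 3 of 11 activated Hox loops were above the median strength. The 8 activated-only Hox loops had a median length of 182.5 kb and a median strength of 2.83, against 155 kb and 2.80 for all activated-only loops. With counts divided by 1.55, 7 of these 8 passed the resting limits, against 88.3% of all activated-only loops.

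Strength of the shared Hox loops did not move beyond counting error in any of the 3 pairs. The median log2 ratio was 0.08 (-0.20 to 0.39, 3 pairs), against 0.05 over all 1212 pairs, whose SD was 0.32. No Hox pair rose or fell by 1.5-fold or more, where 4.04% of all pairs rose and 1.82% fell by that much. The ratio of expected counts between the states was 1.19 at the Hoxa pair and 2.15 and 1.48 at the Hoxc pairs, against a median of 1.55.

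**Figure D4:**
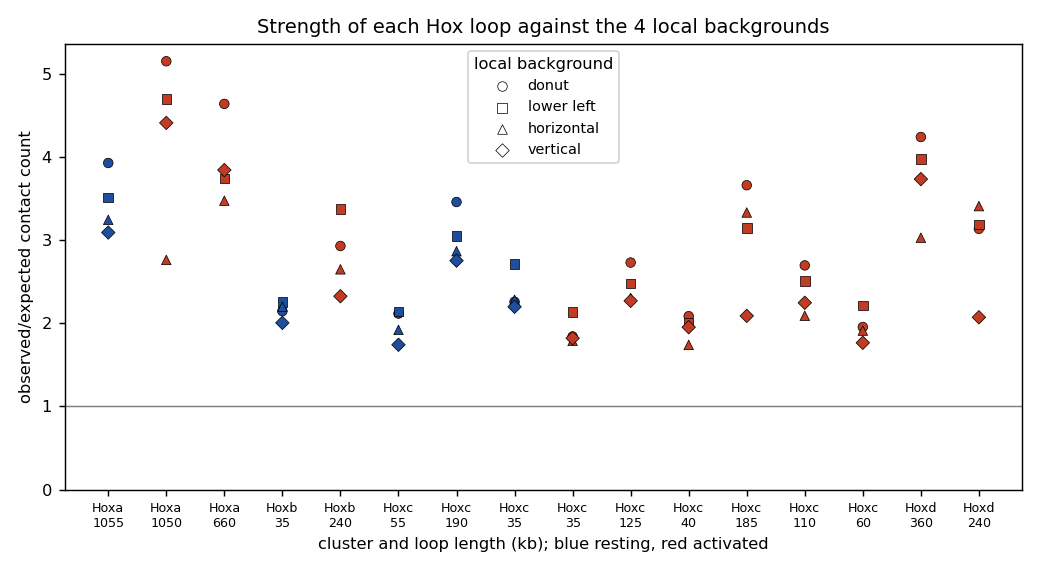
Strength of each of the 16 Hox loops against the donut, lower left, horizontal and vertical backgrounds, by cluster and loop length in kb, with resting loops in blue and activated loops in red. The line at 1 is the level of the background. Every loop is above it against all 4, as follows from how loops are called. The 1050 kb Hoxa loop spreads most, from 2.76 to 5.15.

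The strength of a Hox loop varied with the local background it was set against. The activated long Hoxa loop stood at 5.15, 4.69, 4.41 and 2.76 times the donut, lower left, vertical and horizontal backgrounds, and its resting partner at 3.93, 3.51, 3.09 and 3.24 times. For the strong Hoxc loop the values in activated cells were 3.66, 3.15, 2.09 and 3.33 times, and 3.46, 3.05, 2.75 and 2.87 times in resting cells. The highest of the authors' 4 q-values for a Hox loop was 0.0676 in resting cells, at the left edge of Hoxc, and 0.0390 in activated cells, at the second Hoxd loop. With all 4 q-values at most 0.01, 4 resting and 9 activated Hox loops were left.

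Anchors of Hox loops were mostly used by 1 loop. Anchors of both lists within 10 kb of each other were merged, which gave 25 Hox loop anchors, 10 in use in resting cells, 21 in activated cells and 6 in both. Anchors in use in both states made up 60% of those of resting and 28.6% of those of activated cells, against 74.3% and 35.5% over the whole lists. In resting cells 1 anchor held 2 or more loops, and in activated cells 2 did (10% and 9.52%), against 15.5% and 24.8% over the lists. Of the 6 anchors in both states 2 were at Hoxa and 4 at Hoxc.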

How the data were processed

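Hi-C loops of resting and activated mouse B cells were read from 2 lists deposited by the authors. BWA, Juicer and build mm9 are named in the submitters' processing notes. Caller, settings and library totals are not given in the sources used. The authors deposited, for every loop, an observed contact count (whole numbers) at a pixel 5 kb wide, the expected count from 4 local backgrounds, a q-value against each, and the number of merged pixels. The highest deposited q-value was 0.0942 in the resting and 0.0998 in the activated list. Absence from a list means that no loop was called there. The activated list names no time, and was taken as 72 h because the deposited description of the maps has 1 activated state without gene deletion or inhibitor.

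Pairs were made one-to-one, nearest first. Length was the distance between anchors. Counting SEs took expected counts as fixed. Activated counts were scaled down by the median ratio of expected counts at 1212 pairs and rounded, not drawn at random. This ratio ran from 1.64 for loops of up to 50 kb to 1.24 for those over 500 kb, so 1 factor does not make the depths equal. Python 3.11.15, pandas 2.3.3 and scipy 1.17.1 were used. Matching was run on simulated data with shifts smaller than the rule allows, so wrong matches among close loops were not tested. Loops named were the strongest and longest per window and state, the largest rise and fall per window, loops at anchors with 3 or more, and, as every window held 6 or fewer per state, all others. Members, windows and settings were chosen with earlier results of these data known. All 38 genes matched RefSeq symbols. Not analysed here were 59 further Hi-C libraries and 165 from other assays.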

Additional observations from a re-analysis of the deposited data

How the results depend on the processing

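Of 80 alternative values, 72 lay inside the main value's interval (for medians the order-statistic interval or range, for counts 1.5 times) and 8 moved. With so few loops these intervals are wide, so lying inside them says little about stability. With both anchors required in the window, the ratio of counts (2.2) became 9, the shared part of the resting loops (60%) became 100%, from 1 loop, and the counts became 0 and 0 at Hoxa in resting and activated cells, 0 at Hoxb and 1 at Hoxc in resting cells. These changes follow from the loops removed. With anchors not widened, 0% of resting loops were shared and 100% of activated ones were activated-only, since all 3 pairs lay 5 kb or more apart. No median strength ratio could be had then, nor for pairs at the same pixel. That ratio (0.08) was -0.06 without Hoxa and -0.10 against the horizontal background. Leaving out 1 window at a time gave count ratios of 1.8 to 2.5, and resting medians of length of 45 to 545 kb. Scaling the activated counts down gave 2 with the single factor and 2.2 with a factor by length class, which was chosen after the data were seen. No paired analysis was possible because each state has 1 pooled list. The second Hoxd loop passed the resting limits with the factor of its length class (1.46) and not with the single one (1.55).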

Other observations

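A stretch of chromosome 6 next to the Hoxa loops had no resting loop. From the right end of the long Hoxa loop at 52180000 to the next resting loop at 66915001 lay 14.7 Mb, a length reached by 11 of 1795 gaps between successive resting loops on the autosomes, this one included. Activated cells had 14 loops in it, and the rightward Hoxa loop was the first of them. Their median length was 240 kb and their median strength 3.68, against 140 kb and 2.84 over the whole activated list. Chromosome 6 as a whole had 0.576 resting and 1.5 activated loops per Mb, so the 14.7 Mb stretch was sparse in activated cells too. This stretch was chosen with its values known.

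Loops within 500 kb of the Hox windows, but not in them, were 27 in the activated and 10 in the resting list, 2.7 times as many (exact interval 1.27 to 6.25), and the ratio over the whole lists, 2.31, lies in that interval. Of these, 9 of the 10 resting loops (90%) and 9 of the 27 activated loops (33.3%) were shared, against 65.2% and 28.3% over the whole lists. The difference in sharing between the windows and their flanks was not tested. The strongest flanking loop in both states lay left of the Hoxa window, from 51155001 to 51530000 in resting cells (31 contacts, strength 5.42) and from 51160001 to 51530000 in activated cells (65 contacts, 4.97). It lay wholly under the long Hoxa loop.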
